A study of Mus musculus with 13 samples.

Results

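IL-6 family, IL-1 and IL-33 signaling was followed through 10 genes in CD45- thymic stromal cells: *Il6*, *Lif*, *Il11*, *Osmr*, *Il6st*, *Socs3*, *Stat3*, *Il1r1*, *Il1rn* and *Il33*. They were found by mouse symbol in a bulk RNA-seq count table, and all 10 were among its 53379 genes. CD45- cells of the thymus were profiled in 2-month-old wild type C57BL/6 mice without irradiation (steady state, labelled untreated and given PBS, n = 4 libraries) and on day 1, day 4 or day 7 following sublethal total body irradiation (TBI, n = 3 libraries each). The labels do not say whether libraries of a condition came from separate animals, so p-values measure the spread between these libraries, which may be technical. Total counts per library ran from 15721866 to 52056896.

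The IL-6 family of cytokines signals through receptor complexes that share gp130, the product of *Il6st*. IL-6, IL-11 and LIF each pair gp130 with a different further receptor chain, and oncostatin M (OSM) uses the chain encoded by *Osmr*. Bound receptors activate JAK kinases and STAT3, and STAT3 induces *Socs3*, which inhibits the same receptors. IL-1 acts through *Il1r1* and is blocked by the antagonist encoded by *Il1rn*, and IL-33 is held in the nuclei of stromal cells and released when they are damaged.

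Promoter sequence from RefSeq (GRCm38.p6) shows which short motifs lie before the start sites of members with different time courses. *Il6* and *Il1rn* were lower at day 7 than at day 1, and *Lif* is shown beside them because its promoter held 2 of the same motifs. Each sequence is in the sense of the gene, ends before the first annotated exon, and has in capitals the AP-1 (TGANTCA), C/EBP (TTNNGCAA) and NF-kB motifs found on either strand, none of which overlapped another.

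*Il6*, chr5:30012864-30013113, plus strand: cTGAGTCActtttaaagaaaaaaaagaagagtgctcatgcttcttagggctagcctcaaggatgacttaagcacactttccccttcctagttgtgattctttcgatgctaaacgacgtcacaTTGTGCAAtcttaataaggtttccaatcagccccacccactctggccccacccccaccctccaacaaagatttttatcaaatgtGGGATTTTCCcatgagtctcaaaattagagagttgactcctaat
*Il1rn*, chr2:24336610-24336852, plus strand: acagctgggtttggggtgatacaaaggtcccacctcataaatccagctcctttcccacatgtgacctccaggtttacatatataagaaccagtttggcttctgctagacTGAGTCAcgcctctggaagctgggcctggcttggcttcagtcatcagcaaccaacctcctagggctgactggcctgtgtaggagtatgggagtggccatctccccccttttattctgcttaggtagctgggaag
*Lif*, chr11:4257318-4257556, plus strand: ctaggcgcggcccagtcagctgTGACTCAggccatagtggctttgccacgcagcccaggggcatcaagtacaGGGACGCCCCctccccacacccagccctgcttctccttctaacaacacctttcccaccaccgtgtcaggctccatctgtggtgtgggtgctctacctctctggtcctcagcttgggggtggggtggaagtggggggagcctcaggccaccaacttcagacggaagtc

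In the *Il6* promoter the AP-1 motif began at base -249, the C/EBP motif at -128 and the NF-kB motif at -44 from the start site. The *Lif* promoter had an AP-1 motif from -228 and an NF-kB motif from -178, whereas that of *Il1rn* had the AP-1 motif alone, from -141. Among the 15 RefSeq promoter windows of the 10 genes, AP-1 was found in 5, C/EBP in 3 and NF-kB in 3. The windows hold 250 bases before the start site and 50 after it. The AP-1 motif of *Osmr* lay after the start site, from base 3 to 9. Its sequence is not shown, since its 250 bases before the start site lie in annotated exons. The STAT motif (TTCNNNGAA) was found in 1, from -154 of *Socs3*. Of all 32851 mouse promoter windows of the same 300 bases, 7.81% held AP-1, 10.8% C/EBP, 8.46% NF-kB and 8.3% STAT. These are matches of letters and do not show that a factor bound.

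The marker genes of stromal cells were expressed in every library. Summed fibroblast markers ran from 15359 to 111455 normalized counts (CPM, counts per 1000000) at steady state and from 24666 to 68019 after TBI. Summed thymic epithelial markers (7 genes) were 618 to 1967 CPM at steady state, 1211 to 1856 at day 1, 1949 to 2649 at day 4 and 490 to 916 at day 7. The thymocyte list (9 genes, *Ptprc*, which encodes CD45, among them) summed to 198 to 672 CPM at steady state, 95.4 to 120 at day 1, 23.4 to 35.8 at day 4, and 174, 4210 and 1792 in the 3 libraries of day 7. Neutrophil markers (6 genes) summed to 4.33 to 26.2 CPM at steady state, 20.9 to 43.0 at day 1, 3.74 to 6.29 at day 4 and 1.35 to 7.13 at day 7. Erythroid markers (4 genes) summed to 19580 to 33881 CPM at steady state, 3867 to 16795 at day 1, 8.91 to 12.9 at day 4 and 2556 to 7330 at day 7. In bulk libraries, fewer cells of a type and less RNA per cell cannot be told apart.

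**Figure D1:**
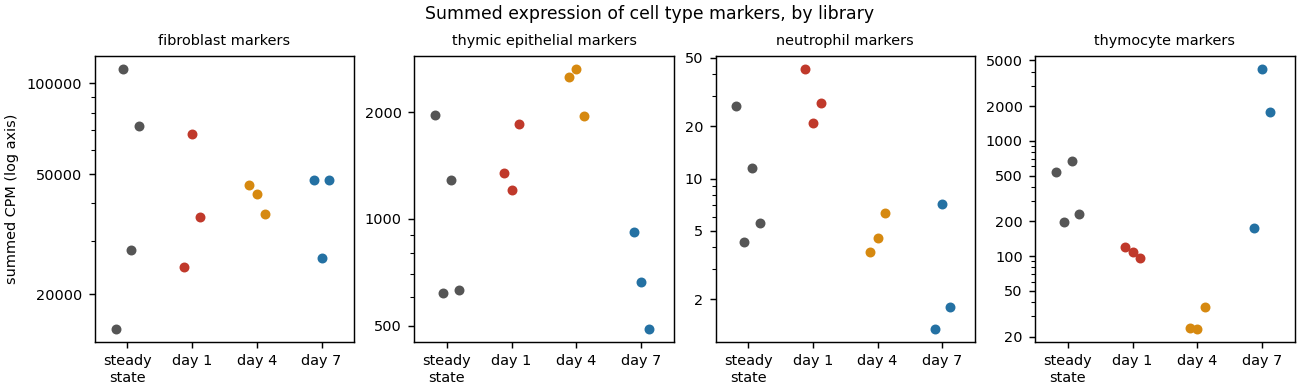
Summed CPM (log axis) of fibroblast, thymic epithelial, neutrophil and thymocyte markers in each library by condition, 1 point per library. Neutrophil markers were 20.9 CPM or more in the 3 libraries of day 1 and 7.13 or less in those of days 4 and 7.

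At steady state the members spanned a wide range of levels. Per kilobase of exon, which allows comparison between genes, *Il33* had the highest mean level at 200 ± 72.0 CPM per kilobase (SD, n = 4). *Socs3* (109 ± 71.1), *Il6st* (84.5 ± 19.2), *Il1r1* (51.6 ± 22.3) and *Stat3* followed, and from *Il33* to *Stat3* each gene overlapped the next in the order. *Stat3* (43.2) and *Osmr* (14.0) were each apart from the gene below them, whereas *Il1rn* (4.45), *Il6* (1.84) and *Lif* (1.80) overlapped. *Il11* was the lowest at 0.374 CPM per kilobase, below every library of *Lif*. At day 1 *Il6* stood above *Lif* in every library, at 11.6 against 2.35 CPM per kilobase, and at day 7 it stood below, at 0.589 against 2.13.

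**Figure D2:**
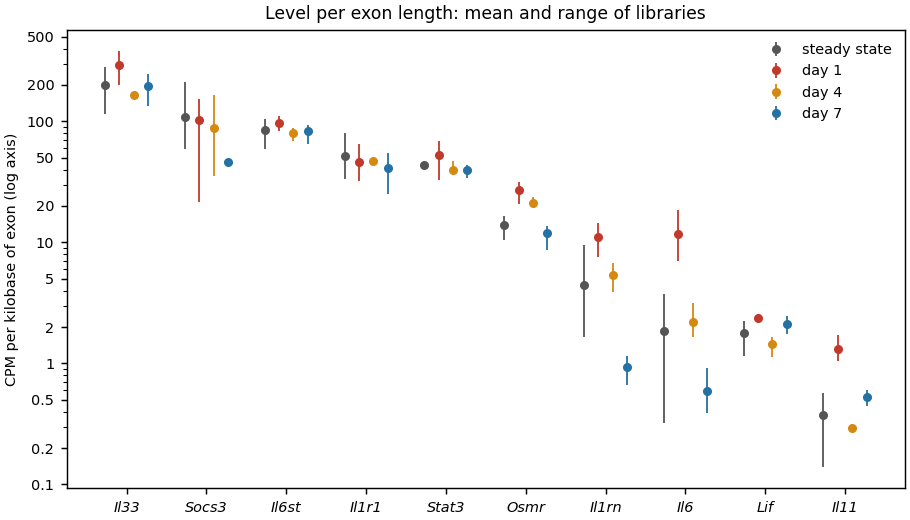
CPM per kilobase of exon (log axis) of the 10 genes, ordered by their mean at steady state, with the mean (point) and range (bar) of the libraries of each condition. *Il6* and *Il1rn* had the widest distance between day 1 and day 7, and *Il6st* and *Stat3* stayed within a narrow band.

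Among the member ligands, *Il6* had the widest range, 57.5-fold from its lowest to its highest library. *Il6* (ENSMUSG00000025746, chr5:30013114-30019981) was at 9.12, 6.88, 0.775 and 1.07 CPM in the 4 steady-state libraries. These are named by their columns, here and in this order below, as PBS day 1 replicate 2, PBS day 4 replicate 2, PBS day 7 replicate 1 and PBS day 7 replicate 2. It was at 44.6, 23.0 and 17.1 CPM at day 1, at 4.00, 7.71 and 4.33 at day 4, and at 1.13, 0.942 and 2.22 at day 7. Every library of day 1 thus lay above every other library, and the steady-state libraries fell into a higher and a lower pair. The lower pair were the PBS day 7 libraries, at 0.775 and 1.07 CPM, beside 0.942 to 2.22 at day 7 after TBI. *Il11*, *Osmr* and *Socs3* were also lower in both PBS day 7 libraries than in the other steady-state libraries, while *Lif* and *Il6st* were higher. The part of the day named in the columns in these levels was not tested. The differences between conditions were tested in 1 edgeR quasi-likelihood fit over 19984 genes with Benjamini-Hochberg adjustment. *Il6* was 6.29-fold higher at day 1 than at steady state (log2 fold change 2.65, SE 0.889, adjusted p = 0.0809), which did not pass the threshold of 0.05, though it did in DESeq2 (adjusted p = 0.00411) and with no filter on low counts (0.0131). It was 19.8-fold lower at day 7 than at day 1 (log2 fold change -4.31, SE 1.18, adjusted p = 0.0123). Without PBS day 1 replicate 2 the rise at day 1 passed (log2 fold change 3.32, adjusted p = 0.046), and without day 7 replicate 2 the fall to day 7 did not (-4.11, adjusted p = 0.0562). Summed neutrophil markers also had their highest median at day 1, at 20.9 to 43.0 CPM, which overlapped steady state. In the steady-state libraries, in the same order, they were 26.2, 4.33, 11.5 and 5.52 CPM. PBS day 1 replicate 2 was thus the highest in both, while PBS day 4 replicate 2 had the lowest sum with *Il6* at 6.88 CPM. The part of neutrophils in the level of *Il6* was not tested.

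*Il11*, which encodes a gp130 cytokine of fibroblasts and other stromal cells, was expressed at a low level. *Il11* (ENSMUSG00000004371, chr7:4772373-4782857) was at 1.14, 1.15, 0.280 and 0.436 CPM at steady state and at 3.48, 2.41 and 2.12 at day 1. It was at 0.581, 0.544 and 0.629 CPM at day 4 and at 0.902, 1.04 and 1.22 at day 7. The 3 libraries of day 1 were the 3 highest, and those of day 4 lay within the steady-state range. The level was 3.51-fold higher at day 1 than at steady state (log2 fold change 1.81, SE 0.577, adjusted p = 0.0601), and it was 4.54-fold lower at day 4 than at day 1 (log2 fold change -2.18, SE 0.663, adjusted p = 0.0614). Neither passed in the edgeR fit of all libraries, and both passed in DESeq2 (adjusted p = 0.00225 and 0.00127). The first also passed in edgeR without PBS day 1 replicate 2 (adjusted p = 0.0435) or without PBS day 4 replicate 2 (0.0355). The second passed in an edgeR fit of those conditions alone (log2 fold change -2.075, adjusted p = 0.0312). With counts between 9 and 123 per library, *Il11* was the least precisely counted member.

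*Lif* did not follow *Il6* or *Il11*. *Lif* (ENSMUSG00000034394, chr11:4257557-4272514), a ligand that pairs gp130 with the LIF receptor, was at 7.28, 5.0, 9.21 and 9.78 CPM at steady state. It was at 9.33, 11.1 and 10.3 CPM at day 1, at 7.23, 4.95 and 6.78 at day 4, and at 7.61, 10.7 and 9.57 at day 7. The libraries of day 4 were all below those of day 1 and of day 7, and all 3 days overlapped steady state. The difference between days 4 and 1 was a log2 fold change of -0.70 (SE 0.326, adjusted p = 0.306). Over all 13 libraries *Lif* varied 2.24-fold.

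**Figure D3:**
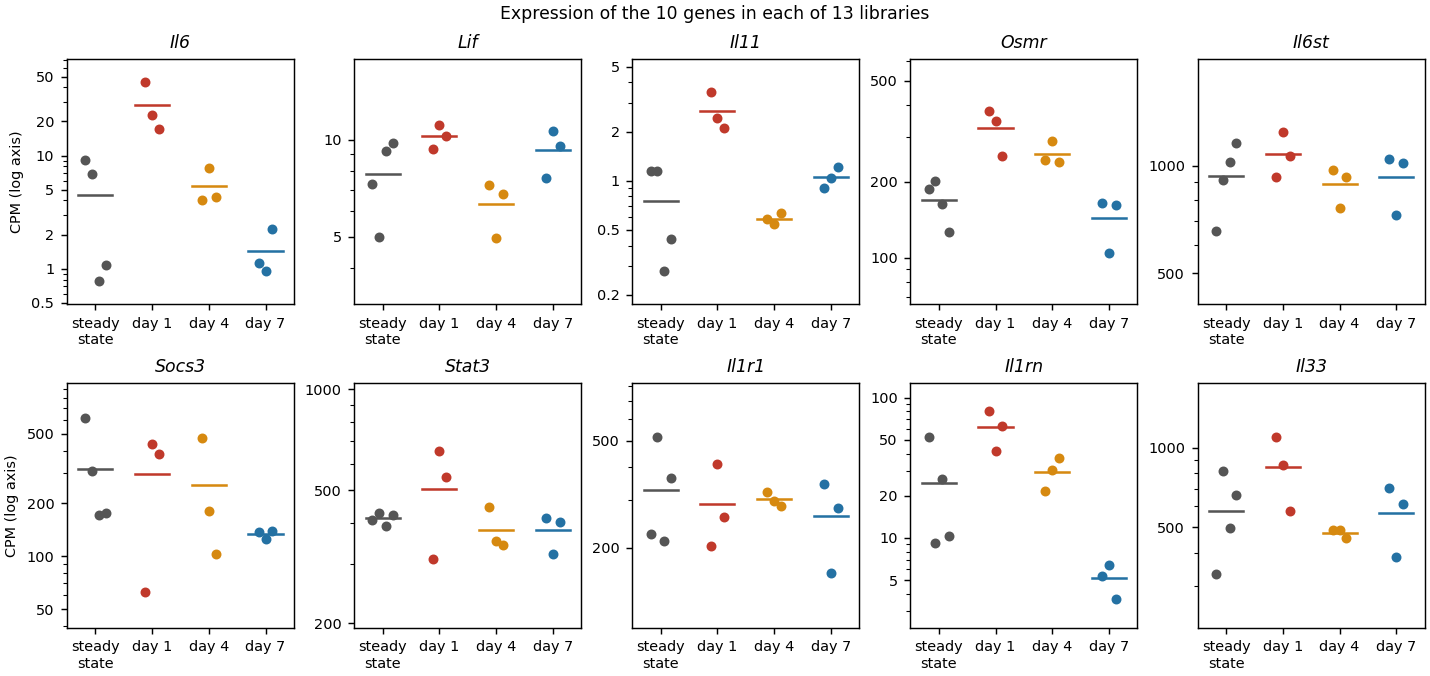
CPM (log axis, each panel with its own scale) of the 10 genes in each of the 13 libraries by condition, with the mean of each condition as a line. The 3 libraries of day 1 were the highest for *Il6* and *Il11*, and the 3 of day 7 were the lowest for *Il1rn*.

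Of the receptors, *Osmr* fell from day 1 to day 7, and the shared chain *Il6st* did not pass a test in any comparison. *Osmr* (ENSMUSG00000022146, chr15:6813577-6874969) was at 187, 201, 163 and 126 CPM at steady state. It was at 381, 346 and 253 CPM at day 1, at 243, 290 and 240 at day 4, and at 164, 105 and 162 at day 7. The 6 libraries of days 1 and 4 were all above the 7 of steady state and day 7. The level was 1.93-fold higher at day 1 than at steady state (log2 fold change 0.95, SE 0.296, adjusted p = 0.0535) and 2.27-fold lower at day 7 than at day 1 (log2 fold change -1.18, SE 0.337, adjusted p = 0.0155). At day 4 it was 1.52-fold higher than at steady state (log2 fold change 0.61, SE 0.265, adjusted p = 0.313). These calls changed with the fit and with single libraries. In a fit of those conditions alone the fall to day 7 was lost (adjusted p = 0.0566), and with RLE factors (0.047), DESeq2 (0.0031) or at least 10 counts in every library (0.039) the rise at day 1 was gained. The fall to day 7 was lost without day 1 replicate 1 (adjusted p = 0.0578) or day 7 replicate 2 (0.0714), and the rise at day 1 was gained without PBS day 4 replicate 2 (0.0378) or day 1 replicate 3 (0.0478).

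*Il6st* (ENSMUSG00000021756, chr13:112464070-112510086) had the highest mean CPM of the members in each condition. It was at 656, 913, 1025 and 1159 CPM at steady state and at 928, 1242 and 1065 at day 1. It was at 972, 764 and 932 CPM at day 4 and at 1042, 726 and 1019 at day 7. All 4 conditions overlapped, and the log2 fold changes against steady state were 0.20, -0.08 and -0.01 at days 1, 4 and 7, with SEs of 0.245 to 0.247.

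The transducer *Stat3* and the inhibitor *Socs3* did not pass a test in any comparison. *Stat3* (ENSMUSG00000004040, chr11:100885098-100939540) was at 407, 427, 391 and 422 CPM at steady state, at 311, 655 and 547 at day 1, at 447, 353 and 344 at day 4, and at 413, 323 and 403 at day 7. Steady state was the tightest of its conditions, and at day 1 replicate 1 lay below all 4 steady-state libraries and the other 2 above them. The log2 fold change at day 1 was 0.29 (SE 0.251, adjusted p = 0.567). Of its exonic bases 0.76% overlap *Stat5a*, and reads there cannot be assigned to either gene.

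*Socs3* (ENSMUSG00000053113, chr11:117966079-117970047) was at 611, 306, 172 and 177 CPM at steady state, at 62.6, 439 and 383 at day 1, at 475, 182 and 103 at day 4, and at 138, 125 and 140 at day 7. The 3 libraries of day 7 were close together and below every steady-state library, while libraries of steady state, day 1 and day 4 were spread widely. The log2 fold change at day 7 against steady state was -1.24 (SE 0.714, adjusted p = 0.472), and that against day 1 was -1.13 (SE 0.737, adjusted p = 0.349). The column names end in tags of 3 kinds (k3, kk and neither), whose meaning is not given in the sources used here. In the 5 libraries with neither tag, *Socs3* was at 611 and 172 CPM at steady state, 439 and 383 at day 1 and 475 at day 4. With tag kk it was at 177 in the steady-state library, 62.6 at day 1 and 140 at day 7. With tag k3 it was at 306 in the steady-state library, 182 and 103 at day 4, and 138 and 125 at day 7. With the tag as a covariate, the log2 fold change from day 1 to day 7 was 0.15 (adjusted p = 0.884), so its direction turned.

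In the IL-1 system the antagonist varied more than the receptor. *Il1rn* (ENSMUSG00000026981, chr2:24336853-24351494) was at 52.5, 9.18, 26.5 and 10.4 CPM at steady state and at 80.0, 42.0 and 62.9 at day 1. It was at 21.6, 30.5 and 37.1 CPM at day 4 and at 5.37, 6.41 and 3.66 at day 7. Each library of day 1 was above each of day 4, and the 3 of day 7 were the lowest of all 13. *Il1rn* was 12-fold lower at day 7 than at day 1 (log2 fold change -3.58, SE 0.883, adjusted p = 0.00588), and this held in each of the 6 fits that left out 1 library of these days, with adjusted p-values of 0.0105 to 0.027. Against steady state, the log2 fold change was 1.32 at day 1 (SE 0.576, adjusted p = 0.208) and -2.26 at day 7 (SE 0.702, adjusted p = 0.117). The first passed without PBS day 1 replicate 2 (log2 fold change 2.06, adjusted p = 0.0255), and the second passed without PBS day 4 replicate 2 (-2.53, adjusted p = 0.0472). The summed thymic epithelial markers at steady state were 1967, 618, 1289 and 631 CPM in the same order of libraries, so that *Il1rn* was high where they were high. At day 4 they were at their highest, at 1949 to 2649 CPM, and *Il1rn* was at 21.6 to 37.1. *Krt14*, a keratin of medullary thymic epithelium, was also lower at day 7 than at day 1 (log2 fold change -1.79, adjusted p = 0.0115). The part of these cells in the level of *Il1rn* was not tested.

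*Il1r1* (ENSMUSG00000026072, chr1:40225080-40317257), the signaling receptor of IL-1, was at 225, 514, 211 and 363 CPM at steady state, at 203, 411 and 259 at day 1, at 323, 298 and 286 at day 4, and at 346, 161 and 280 at day 7. All conditions overlapped. The log2 fold changes against steady state were -0.17, -0.12 and -0.32 at days 1, 4 and 7, with SEs of 0.363 to 0.369.

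*Il33* (ENSMUSG00000024810, chr19:29925114-29960718) was at 334, 815, 498 and 663 CPM at steady state and at 1101, 860 and 574 at day 1. It was at 487, 487 and 457 CPM at day 4 and at 706, 386 and 614 at day 7. The libraries of day 4 were close together and all below those of day 1, while day 1 overlapped steady state. The log2 fold change was 0.55 at day 1 against steady state (SE 0.342, adjusted p = 0.403) and -0.82 at day 4 against day 1 (SE 0.386, adjusted p = 0.307). PBS day 1 replicate 2, the steady-state library with the lowest *Il33*, also had the lowest summed fibroblast markers (15359 CPM), and PBS day 4 replicate 2, with the highest *Il33*, had the highest (111455 CPM). At day 1 the order was another, with 24666 CPM of fibroblast markers in the library of highest *Il33*. The part of fibroblasts in the level of *Il33* was not tested.

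Counted over the comparisons, members passed the test in 1 of 5. At day 1 against steady state, edgeR called 0 of 10, beside 2.35% of all genes tested. An unadjusted p under 0.05 was reached by 4 (*Il6*, *Il11*, *Osmr* and *Il1rn*), beside 17.2% of all genes, and DESeq2 called 3 (*Il6*, *Il11* and *Osmr*), beside 7.0%. *Il6*, *Il11* and *Osmr* did not overlap steady state, all higher, beside 7.25% of all genes. The median log2 fold change of the 10 was 0.47, beside -0.10 over all genes. At day 4 against steady state, 0 of 10 were called by edgeR and by DESeq2, beside 0.29% and 3.23% of all genes, with 1 at an unadjusted p under 0.05, beside 13%. *Osmr* did not overlap steady state, being higher, beside 6.44% of all genes, and the median was -0.12 beside -0.13. At day 7 against steady state, edgeR called 0, beside 0.005% of all genes, with 2 at an unadjusted p under 0.05, beside 13.5%. DESeq2 called 1, *Il1rn*, beside 5.41%. *Il1rn* and *Socs3* lay below steady state without overlap, beside 4.67% of all genes, and the median was -0.18 beside 0.002 over all genes.

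The comparisons among irradiated libraries share those of day 1. At day 4 against day 1, edgeR called 0 of 10, beside 1.43% of all genes, with 4 at an unadjusted p under 0.05, beside 13.7%. DESeq2 called 2 (*Il6* and *Il11*), beside 4.8%. *Il6*, *Il11*, *Lif*, *Il1rn* and *Il33* were lower without overlap, beside 13.7% of all genes, and the median log2 fold change was -0.55 beside -0.10 over all genes. At day 7 against day 1, *Il6*, *Il1rn* and *Osmr* were called, all lower, beside 8.13% of all genes called in either direction and 4.45% called lower. DESeq2 called 4, *Il11* as well (log2 fold change -1.39, adjusted p = 0.0345), beside 14.7% of all genes, and a fit of those conditions alone called 2, *Il6* and *Il1rn*. The 3 genes called by edgeR and *Il11* did not overlap day 1, beside 14.8% of all genes, and the median was -0.85 beside 0.05. Tag kk is the only tag present at both day 1 and day 7, with 1 library each. In these libraries *Il6* was at 44.6 and 2.22 CPM, *Il1rn* at 80.0 and 3.66, and *Osmr* at 381 and 162. With the tag as a covariate in all libraries, the 3 calls held (adjusted p = 0.0333, 0.0327 and 0.0372).

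**Figure D4:**
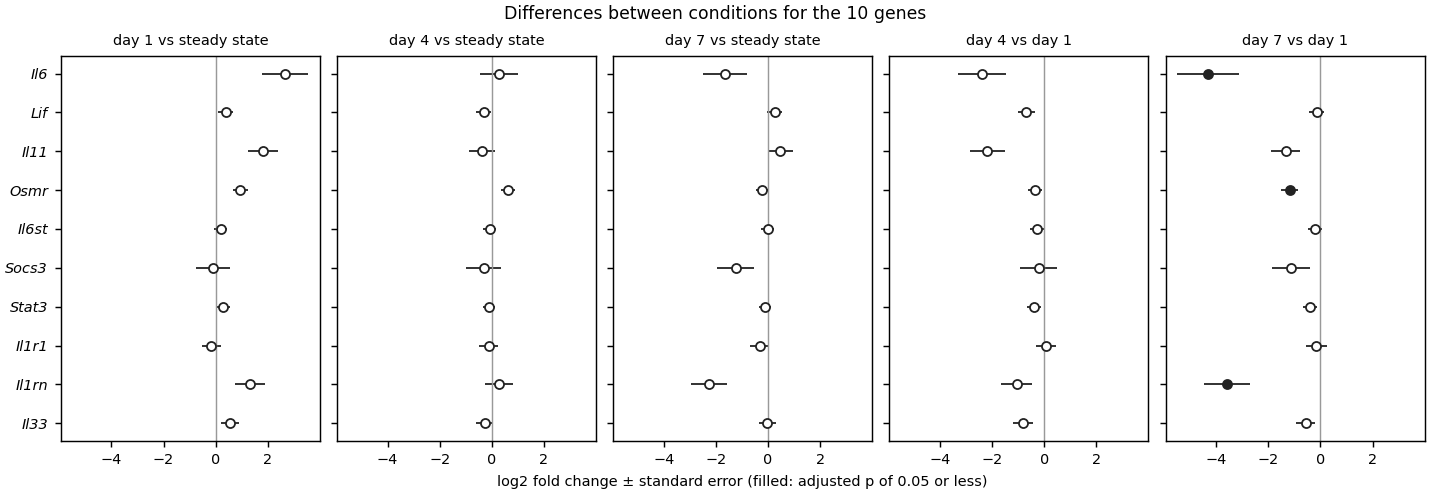
Log2 fold change (point) with its standard error (bar) of the 10 genes in 5 comparisons, with filled points for an adjusted p of 0.05 or less. Only *Il6*, *Osmr* and *Il1rn* at day 7 against day 1 are filled.

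Other genes of the same pathways were taken from 9 lists with 78 genes that are no member and passed the filter on low counts. At day 1 against steady state, edgeR called 6 of the 78, all higher, beside 2.35% of all genes, and DESeq2 called 13, of which 12 were higher, beside 7.0%. Of the ligands of the IL-6 family, 0 of 9 were called by edgeR, with 2 at an unadjusted p under 0.05, and 2 by DESeq2, both of them members. *Osm*, the ligand of *Osmr*, was at 1.73 to 3.60 CPM at day 1 and 0.05 to 1.36 at steady state (adjusted p = 0.301). Among receptors 0 of 8 were called by edgeR and 1, *Osmr*, by DESeq2, with 2 at an unadjusted p under 0.05. Of 8 inhibitors of JAK-STAT signaling, 0 were called by edgeR or DESeq2, with 0 at an unadjusted p under 0.05.

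Of 15 STAT3 and acute-phase targets, *Lcn2*, which encodes the iron-binding protein lipocalin-2, was called by edgeR. Its level rose 69.6-fold, from 8.04 to 37.7 CPM at steady state to 736 to 2063 at day 1 (log2 fold change 6.12, SE 1.23, adjusted p = 0.000275). DESeq2 called 6 of the 15, all higher. They included *Saa3*, an acute-phase protein, and *Timp1*, an inhibitor of matrix proteases, which were named after their values were seen. *Saa3* was at 1546 to 3784 CPM at day 1 and 8.43 to 258 at steady state (adjusted p in edgeR = 0.0636), and *Timp1* was at 1138 to 1902 and 10.1 to 385 (0.109). The list had a median log2 fold change of 0.93, beside -0.10 over all genes.

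In the IL-1 family, edgeR called 1 gene of each list at day 1, each of them higher. A positive log2 fold change was found for 9 of 10 ligands, 4 of 9 receptors and decoys, and 4 of 10 adaptors and kinases. Over all genes tested it was found for 8708 of 19984. *Il1b*, the inducible IL-1 ligand, rose 5.04-fold from 0.967 to 4.93 CPM (adjusted p = 0.048), and it was the 1 of 10 ligands called. *Il18bp*, the soluble inhibitor of IL-18, rose 6.18-fold from 19.6 to 121 CPM (adjusted p = 0.00018), and it was the 1 of 9 receptors and decoys called. *Myd88*, the adaptor of IL-1 receptors, rose 2.30-fold (adjusted p = 0.0238), the 1 of 10 adaptors and kinases called. Of 12 NF-kB targets and feedback genes, *Ccl2*, a chemokine for monocytes, rose 12.7-fold from 13.6 to 174 CPM (adjusted p = 0.00185). It was the 1 called by edgeR, and DESeq2 called 2 higher and 1 lower. The list as a whole did not rise, with a median log2 fold change of -0.28, beside -0.10 over all genes. Of the 12 genes 9 were negative, beside 11276 of 19984 genes tested. Of the cell type markers, *Csf3r*, the G-CSF receptor of neutrophils, was at 5.05 CPM at day 1 and 0.118 at steady state (adjusted p = 0.000707). *Cd14*, of monocytes, was at 41.0 and 18.9 (adjusted p = 0.036). It was the 1 called of 7 macrophage or monocyte markers, of which 4 had a positive and 3 a negative log2 fold change. The sums of that list overlapped, at 108 to 164 CPM at day 1 and 71.0 to 155 at steady state. The part of neutrophils and monocytes in *Il1b* and *Lcn2* was not tested.

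None of the 78 genes was called by edgeR at day 4 or day 7 against steady state. There were 8 and 15 at an unadjusted p under 0.05, beside 13% and 13.5% of all genes. DESeq2 called 1 (*Lcn2*, higher) and 7 (all lower), beside 3.23% and 5.41%. At day 4 against day 1, edgeR called 5 of the 78, beside 1.43% of all genes, all lower, *Il1b*, *Il18bp*, *Ccl2* and *Lcn2* among them. The fall of *Il1b* was 16.1-fold, to 0.305 CPM (adjusted p = 0.00994).

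At day 7 against day 1, edgeR called 14 of the 78, all lower, beside 4.45% of all genes called lower. Of the 10 IL-1 family ligands 6 were called, *Il1rn* among them. The list had a median log2 fold change of -2.94, beside 0.05 over all genes. *Il1b* was 19.8-fold lower at 0.243 CPM (adjusted p = 0.00435), *Il36g* 10.2-fold lower at 0.334 CPM (0.0206) and *Il36a* 9.84-fold lower at 0.389 CPM (0.0163). *Il36b* had 0 counts in the 3 libraries of day 7 and 4 to 15 counts per library at day 1. Against a floor of 3 counts over the 3 libraries it was at least 13.4-fold lower (adjusted p = 0.0271). *Il36rn*, which encodes the antagonist of the IL-36 receptor, was 4.08-fold lower (adjusted p = 0.0384). These genes of the IL-36 group, which acts in epithelia, lie next to *Il1rn* on chromosome 2, between 24153161 and 24283426 in GRCm38. Of the IL-6 family, *Ebi3*, a subunit shared by IL-27 and IL-35, was 9.28-fold lower (adjusted p = 0.0171), with 23.1% of its exonic bases in the overlap with *Gm16712*. In the other lists, *Lcn2* (50.4-fold), *Ccl2* (7.48-fold) and *Il18bp* (5.51-fold) were lower. Summed epithelial and neutrophil markers were also lower at day 7 than at day 1 in every library, and their part was not tested.

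**Figure D5:**
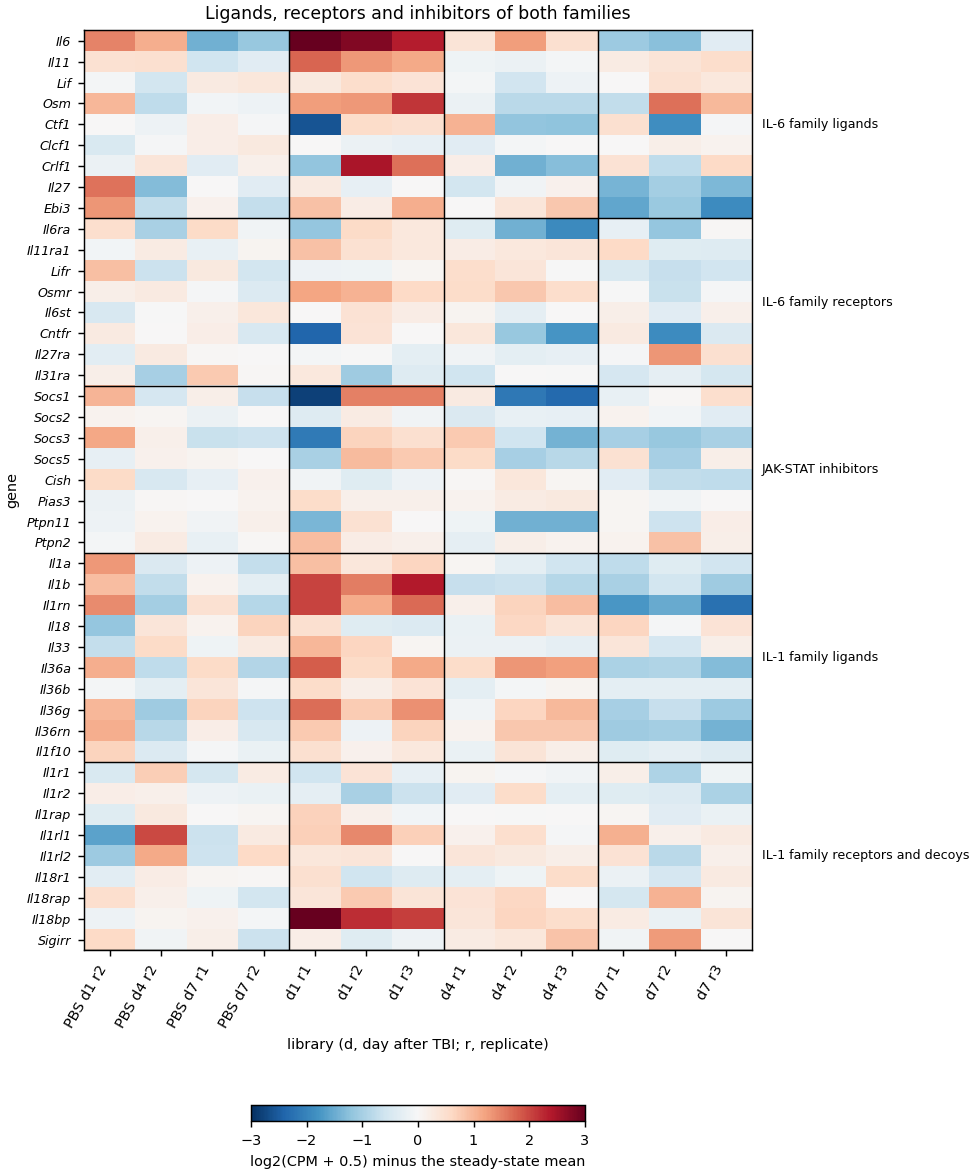
Log2(CPM + 0.5) of ligands, receptors and inhibitors of both families in each library, minus the mean of the 4 steady-state libraries, with rows as genes and columns as libraries. *Il6*, *Il1b*, *Il1rn* and *Il18bp* were above that mean in the 3 libraries of day 1, and *Il1rn* and the IL-36 genes were below it in those of day 7.

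Among 11448 genes with a mean of at least 5 CPM, those with the most similar pattern to each member were found by Pearson correlation of log2(CPM + 0.5) over the 13 libraries, which share conditions, cell composition and depth. For *Il1rn* they were *Aoc1* (r = 0.99), *Aqp3* (0.987), which encodes a water and glycerol channel, and *Muc1* (0.984), a mucin of epithelial surfaces. For *Il6* they were *Sele* (0.937), the endothelial adhesion molecule E-selectin, *Hmox1* (0.935), which encodes heme oxygenase-1, and *Tmem173* (0.935), which encodes the DNA sensor adaptor STING. For *Il11* they were *Msn* (0.941) and the chemokine genes *Ccl7* (0.936) and *Ccl2* (0.936). For *Osmr* they included *Cd14* (0.934) and *Steap4* (0.931), and for *Socs3* they were *Apold1* (0.939) and the immediate early gene *Egr1* (0.934), followed by *Nfkbiz* (0.921). For *Il33* they were *Fkbp14* (0.969), *Zdhhc9* (0.964) and *Ugdh* (0.951). Between members, the highest correlation was that of *Il6* and *Osmr* (r = 0.879), followed by *Il6* and *Il11* (0.792), and the lowest was that of *Lif* and *Il1r1* (-0.407).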

How the data were processed

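Bulk RNA-seq of CD45- thymic cells was analyzed in 13 libraries. Per the labels, the authors trimmed reads with Trimmomatic 0.38, aligned them with STAR 2.7.0e to GRCm38.p5 and counted them per gene with featureCounts 1.6.3, and the deposited counts are whole numbers without normalization. Symbols and exons came from GENCODE M21, and coordinates are GRCm38.

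All 13 libraries entered 1 edgeR 4.0.16 fit (R 4.3.3) with a term for condition, filterByExpr(), TMM factors and the quasi-likelihood test. It kept 19984 genes, all 10 members included, and its common dispersion was 0.177. A Benjamini-Hochberg adjusted p of 0.05 or less was counted as changed. Each SE is the size of a log2 fold change divided by the normal deviate of the two-sided p. CPM values use the TMM factors, and floors (3 counts) cover counting error only. DESeq2 1.42.0 was an alternative, as were RLE factors, other filters, the 2 conditions alone, a replicate block, a term for the tag in the column names, and leaving out each library.

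The rule for named genes takes all members, up to 4 further called genes per pathway list and comparison, and the 3 genes most correlated with a member. Of the genes it takes, 2 are not reported here. Members and lists were chosen with earlier results of these data known. Marker lists for endothelial, smooth muscle, mesothelial, macrophage and B cells were also summed, and at day 1 these sums ran from 585 to 817, 702 to 938, 1231 to 1470, 108 to 164 and 0.963 to 2.55 CPM, against 582 to 985, 401 to 1040, 498 to 3753, 71.0 to 155 and 1.33 to 4.10 at steady state. The authors' table also holds exonic lengths, used for levels per kilobase. Single-cell and imaging data of the study were not analysed here.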

Additional observations from a re-analysis of the deposited data

How the results depend on the processing

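The counts of members called depended on the tool and on single libraries. At day 1 against steady state edgeR called 0 members, whereas DESeq2 called 3, RLE factors 1, no filter on low counts 1 and at least 10 counts in every library, which leaves out *Il11*, 1. Leaving out 1 library gave 0 to 3. At day 7 against steady state, DESeq2 called 1, no filter 1, and leaving out a library gave 0 to 1. At day 4 against day 1, DESeq2 called 2 and a fit of those conditions alone 1. At day 7 against day 1, where 3 were called, DESeq2 called 4, a fit of those conditions alone 2, and leaving out a library gave 1 to 3. At day 4 against steady state none of the alternatives called a member. The cause of these differences was not tested. Over the whole table, calls in the comparisons, in the order of the plot of log2 fold changes, numbered 469, 58, 1, 285 and 1625 in edgeR and 1399, 645, 1081, 960 and 2940 in DESeq2. Over all alternatives they ran from 209 to 1399, 19 to 645, 0 to 1081, 56 to 960 and 472 to 2940.

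Same-numbered libraries after TBI did not deviate together (correlations of -0.666 to 0.196), and differently numbered ones had correlations of -0.468 to 0.578. Deviations from a mean of 3 libraries sum to 0, so these values cannot decide whether libraries were paired. For comparisons with steady state the replicate block used the numbers of the column names, in all libraries. For the others it used those of the labels, in the irradiated libraries alone. With this second block 2 members, *Il6* and *Il1rn*, were called at day 7 against day 1, and *Osmr* was not (log2 fold change -1.18, adjusted p = 0.0656). The whole-table counts were 209, 27 and 0 of 19984 genes with the first block, and 56 and 640 of 19176 with the second.

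Of 675 alternative log2 fold changes of the members, 616 kept their direction and side of the threshold, 35 changed sign, 19 gained a call and 5 lost one. None of the differences that changed sign was called, and *Socs3* at day 7 against day 1 was at -1.13. A changed sign was found for *Il6st* at day 4 against steady state with those conditions alone (0.022), *Socs3* at day 1 with the replicate block (0.033), and, with the tag as a covariate, *Il6st* (0.025) and *Stat3* (0.021) at day 7 against steady state, *Socs3* (0.22) and *Il1r1* (-0.12) at day 4 against day 1, and *Lif* (0.15) and *Socs3* (0.15) at day 7 against day 1. Leaving out 1 library, *Socs3* ran from -0.50 to 0.47 at day 1, -1.01 to 0.30 at day 4 and -0.99 to 0.19 at day 4 against day 1. *Il1r1* ran from -0.50 to 0.13 at day 1, -0.18 to 0.18 at day 4, -0.15 to 0.38 at day 4 against day 1 and -0.40 to 0.18 at day 7 against day 1. *Il6* ran from -0.10 to 0.96, *Il1rn* from -0.0035 to 1.05 and *Il6st* from -0.12 to 0.071 at day 4. *Il6st* ran from -0.16 to 0.17, *Stat3* from -0.18 to 0.030 and *Il33* from -0.21 to 0.23 at day 7. By TPM, *Il6* and *Lif* exchanged places in the order at steady state. Of the 30 genes named as most similar to a member, 12 were also among the 3 most similar by Spearman's correlation.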
